A study of Mus musculus with 9 samples.

Results

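The eyeballs of mice injected with scopolamine were compared with those of mice that were not injected. All 9 RNA-sequencing libraries of the study entered the comparison, 6 injected against 3 not injected, chosen by the group in each sample's title. The mice were wild-type female BALB/C, an albino inbred strain, 15 of them obtained at 6 weeks of age, and the tissue was the whole eyeball at postnatal day 56. The 3 CON libraries came from mice given water and no injection. The 3 DES libraries (dry eye syndrome) came from mice given scopolamine intraperitoneally and water. The 3 T.chuii libraries came from mice given the same injections and 300 mg/kg of Tetraselmis chuii, a green microalga, for 2 weeks. CON mice are labelled as having no treatment, so the drug and the act of injecting cannot be told apart, and no library came from mice fed the alga without injection. Whether each library is its own animal is not stated, so every p-value here rests on the variation among the libraries sequenced, some of which may be technical.

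Scopolamine blocks muscarinic acetylcholine receptors, through which parasympathetic nerves drive tear secretion, pupil constriction and contraction of the ciliary muscle. Repeated injection lowers tear flow and is used to model dry eye, a disorder of the cornea, conjunctiva and tear glands. A whole eyeball also holds the lens, retina, pigment epithelium, sclera and remnants of the eye muscles. In such bulk samples, more cells of a type and more RNA per cell cannot be told apart.

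Library totals lay between 39.1 and 64.6 M reads, with a mean of 53.4 ± 13.0 M (SD, n = 3) in CON and 47.7 ± 5.12 M (SD, n = 6) in the injected libraries, a difference within the spread (exact two-sided permutation p = 0.381). The tables held 22587 genes, of which 21287 passed the filter on low counts. Retina and cornea were both present, but in varying proportion. The ratio of reads of corneal epithelial genes to reads of rod phototransduction genes was 0.765, 4.20 and 0.913 in CON 1 to 3, 2.74, 0.495 and 0.713 in DES 1 to 3, and 4.18, 0.365 and 0.489 in T.chuii 1 to 3. CON 2, DES 1 and T.chuii 1 stood apart on this measure, 1 in each group, and the ratio did not separate injected from CON (exact two-sided permutation p = 0.595). DES 2 stood apart from the other injected libraries in lens genes, as described next.

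Lens genes held the largest log2 changes among the genes named here. Crystallins are the proteins that fill lens fibre cells and make the lens transparent. The 6 crystallin genes in the tables, of 16 listed, held 0.0287%, 0.0201% and 0.0248% of all reads in CON 1 to 3, 4.07%, 0.0408% and 3.47% in DES 1 to 3, and 2.53%, 5.86% and 1.21% in T.chuii 1 to 3. All injected libraries were above all CON libraries, but DES 2 was nearer to CON than to the other 5. The other 10 listed crystallins were not analysed here. Every gene in the tables had at least 1 read in each library.

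Several of these genes share a short sequence before a transcription start, shown here as a description because they move together across the libraries. The MAF family of transcription factors, which drives crystallin genes in the lens, binds elements built from the half-site TGCTGA. The 250 bases before a single start of each gene are given 5′ to 3′ on the gene's strand, from RefSeq (GRCm38.p6). The start used was the available one nearest the annotated edge of the gene. TGCTGA or its reverse complement TCAGCA is in capitals.
Cryaa: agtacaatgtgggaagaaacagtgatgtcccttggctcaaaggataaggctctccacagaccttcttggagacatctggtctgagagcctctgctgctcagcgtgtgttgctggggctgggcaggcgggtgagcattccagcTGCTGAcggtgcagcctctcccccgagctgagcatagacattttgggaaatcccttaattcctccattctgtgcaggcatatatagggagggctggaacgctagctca
Crybb1: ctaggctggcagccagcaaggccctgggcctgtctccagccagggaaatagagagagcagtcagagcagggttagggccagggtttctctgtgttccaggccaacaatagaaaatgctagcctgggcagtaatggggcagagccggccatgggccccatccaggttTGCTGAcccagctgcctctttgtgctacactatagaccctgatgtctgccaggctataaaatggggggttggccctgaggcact
Crybb3: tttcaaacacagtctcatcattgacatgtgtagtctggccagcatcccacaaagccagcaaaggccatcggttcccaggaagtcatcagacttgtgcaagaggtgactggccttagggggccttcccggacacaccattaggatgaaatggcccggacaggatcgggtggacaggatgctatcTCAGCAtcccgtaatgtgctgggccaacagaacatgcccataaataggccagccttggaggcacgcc
The Cryaa window is chr17:31677681-31677930 on the plus strand, the Crybb1 window chr5:112255570-112255819 on the plus strand, and the Crybb3 window chr5:113081585-113081834 on the minus strand. The Crybb1 and Crybb3 windows lie inside the annotated spans of these genes (chr5:112254563-112269585 and chr5:113075839-113082236), so the start used there is an internal one. The match began 108, 84 and 67 bases before the start used in Cryaa, Crybb1 and Crybb3. Searched on both strands, the 6 letters were present in the windows of 5 of the 5 crystallin genes that had one, in 7 of 14 genes of the 2 lens lists together, and in 2139 of 15220 (14.1%) of all tested genes with a window. The 7 include those 5 crystallins. The letters were present in 25 of 126 (19.8%) of the genes whose injected libraries all lay above CON and in 8 of 45 (17.8%) of those whose injected libraries all lay below. The 25 include Cryaa, Crybb1 and Crybb3. The windows of Npl and Ptgs2, a higher and a lower gene described below, held 0 matches. A match is a run of letters and no measured binding, and the part of MAF factors in these changes was not tested.

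Cryaa, which encodes αA-crystallin, a small heat-shock chaperone and one of the most abundant lens proteins, had 0.261, 12.7 and 0.268 CPM (read counts scaled to library size and composition) in CON 1 to 3. It had 28022, 154 and 20138 CPM in DES 1 to 3, and 18715, 38281 and 8386 CPM in T.chuii 1 to 3. Its lowest injected library, DES 2, was above the highest CON library, CON 2. The log2 change of injected against CON was 13.15 ± 1.83 (SE). Its adjusted p was 0.333 with all 9 libraries and 0.000899 without DES 2 (limma-voom, Benjamini-Hochberg over all 21287 genes). With any other single library left out it was between 0.721 (without DES 1) and 0.9999 (without T.chuii 2). Leaving out DES 2 favours crystallins by construction, since DES 2 was the lowest injected library in them. The DES and T.chuii log2 changes against the shared CON libraries were 12.17 ± 2.05 and 14.12 ± 2.12 (SE), and the T.chuii against DES difference was 1.95 ± 1.88, close to its standard error.

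DES 2 was the lowest injected library in each of the other crystallins. Crybb1, a β-crystallin, had 0.285, 1.22 and 0.403 CPM across CON, 2304, 10.2 and 1668 across DES, and 948, 3847 and 312 across T.chuii (log2 change 10.16 ± 2.18). Crybb3, another β-crystallin, had 0.0949, 1.79 and 0.671 CPM across CON, 1643, 7.67 and 1553 across DES, and 748, 3336 and 200.1 across T.chuii (log2 change 9.82 ± 2.33). Cryba4, a β-crystallin of the acidic class, had 1.26, 6.35 and 2.40 CPM across CON, 5213, 22.4 and 9506 across DES, and 1708, 3829 and 529 across T.chuii (log2 change 8.89 ± 1.79). In these 4 genes all 6 injected libraries lay above all 3 CON libraries. Crybb1 (chr5:112254563-112269585) and Cryba4 (chr5:112246492-112263625) overlap in the annotation, and with no strand setting of the counting stated, their reads may have been divided.

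In the remaining pair of crystallins DES 2 lay below CON. Cryab, the αB-crystallin that many tissues also make, had 263, 199.6 and 229.9 CPM across CON, 4929, 170.1 and 4960.0 across DES, and 5557, 7379.9 and 2108 across T.chuii. Crygn, a γ-crystallin also found in retina, had 1.61, 2.14 and 1.58 CPM across CON, 21.4, 1.23 and 22.0 across DES, and 25.7, 29.9 and 11.6 across T.chuii. In both, the other 5 injected libraries lay above every CON library.

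**Figure D1:**
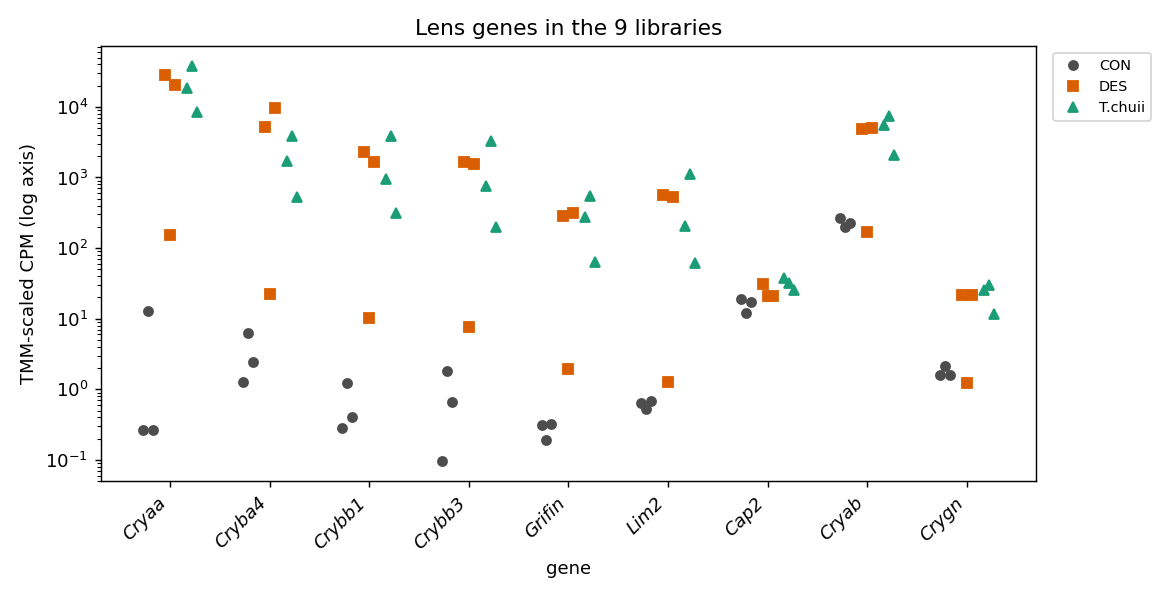
TMM-scaled CPM (log axis) of 9 lens genes in the 3 CON (circles), 3 DES (squares) and 3 T.chuii (triangles) libraries, 1 point a library. DES 2, the lowest square of each crystallin, lies between CON and the other injected libraries in Cryaa (154 CPM) and below CON in Cryab (170 CPM).

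Genes of the lens fibre membrane, cytoskeleton and lens regulators were also mostly higher. Of 12 tested, 11 had a positive and 1 a negative log2 change, with a median of 2.20 beside -0.03 over all genes tested. Grifin, a lens galectin, had 0.308, 0.189 and 0.319 CPM across CON, 288, 1.92 and 316 across DES, and 275, 552 and 63.3 across T.chuii (log2 change 8.67 ± 2.51). Lim2, a fibre cell membrane protein, had 0.641, 0.534 and 0.688 CPM across CON, 556, 1.25 and 523 across DES, and 208, 1134 and 61.0 across T.chuii (log2 change 7.75 ± 2.67). Cap2, an actin regulator, differed far less, with 12.0 to 19.1 CPM in CON and 21.0 to 37.7 in the injected libraries (log2 change 0.81 ± 0.24). In these 3 genes injected and CON libraries did not overlap. Bfsp2, a beaded filament protein of the fibre cytoskeleton, overlapped because DES 2 (14.9 CPM) lay below CON (17.1 to 30.2), while the other injected libraries held 68.8 to 1063.

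No gene passed an adjusted p of 0.05 when the 6 injected libraries were tested against CON (percent called 0), and 645 of 21287 (3.03%) had an unadjusted p under 0.05 (limma-voom). Of these 415 (1.95%) were higher and 230 (1.08%) lower. After Cryaa the next adjusted p was 0.9999. Against the same CON libraries, DES alone and T.chuii alone also gave 0 genes each, with 235 (1.1%) and 912 (4.28%) at an unadjusted p under 0.05, and T.chuii against DES gave 0 with 233 (1.09%).

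DES 2 decided this count. Without it, 26 of the 21287 genes tested passed, all of them higher in the injected libraries. Of the 26, 10 were in the lens lists, which held 18 tested genes. Among the 171 genes whose 6 injected libraries all lay above CON, 11 passed. Outside the lens lists the 26 included Pitx3, a transcription factor needed for lens development, with 0.0689 to 0.166 CPM across CON, 14.4, 0.253 and 7.01 across DES, and 10.0, 11.7 and 4.12 across T.chuii (log2 change 6.38 and adjusted p = 0.00226 without DES 2). Nnat, a small membrane proteolipid of developing brain and lens, had 18.1, 9.11 and 21.7 CPM across CON, 78.4, 19.6 and 56.5 across DES, and 69.8, 77.4 and 54.6 across T.chuii (log2 change 2.17 and adjusted p = 0.0217 without DES 2). Pitx3 and Nnat were picked after their values were seen. Genes that were low in DES 2 gain from its removal by construction, so the adjusted p-values without DES 2 are a description. Without DES 2, 15 of the 21287 genes passed in DES against CON and 17 in T.chuii against CON, and the T.chuii against DES comparison still gave 0.

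The genes that shifted in both injected groups were then described by the position of single libraries. Injected and CON libraries did not overlap in 239 genes (1.12%). In 171 of them (0.803% of those tested) all 6 injected libraries lay above all 3 CON libraries, and in 68 (0.319%) all lay below. The size of the change was alike in DES and T.chuii, the smaller log2 change being at least 0.5 of the larger, in 162 of the 171 (0.761% of all tested) and in 61 of the 68 (0.287%). These genes were chosen for lying beyond the same CON libraries in both groups, which favours changes of like size, so nothing about the pair of treatments is read from that count. T.chuii differed from DES at an unadjusted p under 0.05 in 3 of the 239 (1.26%), beside 1.09% of all genes. The T.chuii change was the larger in 134 of the 171 higher genes and 42 of the 68 lower ones. The share over all genes tested was not computed, so nothing about feeding is read from these counts. DES 2 was the lowest injected library in 76 of the 171 higher genes (44.4%), beside 16.5% of all genes tested, and the part of lens content in this was not tested. The split of the 239 depended on scaling. By library totals it was 145 higher and 122 lower, and by the deposited FPKM values 120 higher and 191 lower. Without DES 2 it was 454 higher and 155 lower.

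**Figure D2:**
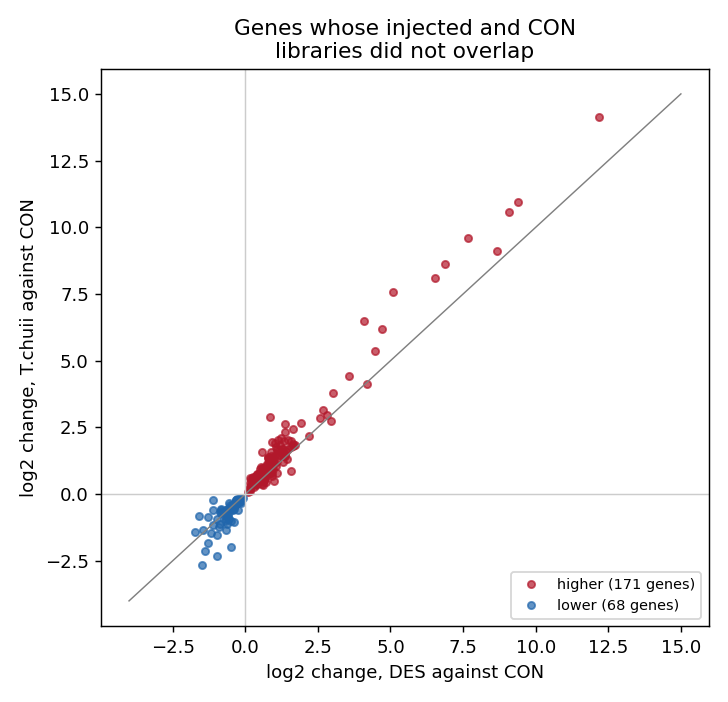
Log2 change of DES against CON (x axis) and of T.chuii against CON (y axis) for the 171 higher (red) and 68 lower (blue) genes, with the line of equal change. Both axes share the 3 CON libraries, and the choice of genes puts every point in the upper right or lower left. The far right point is Cryaa at 12.17 and 14.12.

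Outside the crystallins, the higher genes with the smallest p were modest in level. Their log2 changes ran from 0.74 (Lnpk) to 2.91 (LOC115490161). Npl (chr1:153503016-153549714), the N-acetylneuraminate lyase that breaks down sialic acid, had 9.44, 5.84 and 11.4 CPM across CON, 26.4, 13.4 and 34.4 across DES, and 25.6, 32.2 and 22.1 across T.chuii (log2 change 1.51 ± 0.33). Its DES and T.chuii changes were 1.40 ± 0.39 and 1.62 ± 0.39. Adamts18, a secreted metalloprotease with a role in eye development, had 2.3, 1.88 and 2.1 CPM across CON, 13.9, 3.03 and 6.85 across DES, and 10.9, 18.6 and 7.36 across T.chuii (log2 change 2.04 ± 0.55). In both genes DES 2 was the lowest injected library. With the log2 crystallin share as a covariate, an alternative chosen after seeing the data, the log2 change of Npl was 0.46 and that of Adamts18 0.16. That share itself separates injected from CON, so the fit tells it poorly from the group. The smallest adjusted p in that fit was 0.9994 (limma-voom), and the part of lens content in these genes was not tested.

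LOC115490161 (chr5:140558452-140562921) is the neighbour of Grifin (chr5:140563117-140567526). It had 0.103 to 0.168 CPM across CON, 1.52, 0.286 and 1.66 across DES, and 1.21, 2.23 and 0.662 across T.chuii (log2 change 2.91 ± 0.68). LOC115490161 passed without DES 2 (limma-voom, adjusted p = 0.0256). A pair of the higher genes belongs to the Usher syndrome family, whose proteins anchor the sensory hair bundle and photoreceptors. Ush1c (harmonin) had 0.499 to 0.712 CPM in CON and 0.927 to 2.18 in the injected libraries, with a log2 change of 1.28 ± 0.33. Clrn1 (clarin 1) had 5.06 to 6.14 CPM in CON and 7.52 to 12.8 in the injected libraries, with a log2 change of 0.79 ± 0.22. DES 2 was the lowest injected library in both. Lnpk, which stabilizes junctions of the endoplasmic reticulum, had 43.8, 30.5 and 42.0 CPM across CON, 70.7, 44.7 and 67.7 across DES, and 64.7, 82.8 and 58.7 across T.chuii (log2 change 0.74 ± 0.21). DES 2 lay just above CON 1. Prrt4 had 0.654 to 1.57 CPM in CON and 1.67 to 3.58 in the injected libraries (log2 change 1.38 ± 0.36). Smco1 had 0.0517 to 0.617 CPM in CON and 0.756 to 5.12 in the injected libraries (log2 change 2.89 ± 0.80), where T.chuii 3 and not DES 2 was lowest.

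Bche and Esm1 came from the lists of cholinergic and vascular endothelial genes. Bche, the butyrylcholinesterase that hydrolyses acetylcholine and other choline esters, had 2.3, 2.69 and 2.35 CPM across CON, 3.85, 2.98 and 4.09 across DES, and 6.08, 4.36 and 4.46 across T.chuii (log2 change 0.77 ± 0.26). It was the 1 gene of 14 cholinergic genes tested whose injected and CON libraries did not overlap, beside 1.12% of all genes tested. The median of that list was -0.01. Without CON 2, DES 1 and T.chuii 1, a check on list medians chosen after seeing the data, it was 0.11. Esm1, an endothelial proteoglycan made by sprouting vessels, had 2.61, 1.36 and 2.50 CPM across CON, 9.11, 3.69 and 3.84 across DES, and 6.62, 5.54 and 3.12 across T.chuii (log2 change 1.26 ± 0.39). Of 13 vascular endothelial genes, 10 were higher and 3 lower, with a median of 0.24 (0.08 without CON 2, DES 1 and T.chuii 1). With the crystallin share as a covariate, which itself separates injected from CON, the log2 change was 0.32 for Bche, 0.56 for Esm1, 0.08 for Lnpk, 0.48 for Ush1c, 0.34 for Clrn1, 0.53 for Prrt4, 1.52 for Smco1 and 0.56 for LOC115490161.

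**Figure D3:**
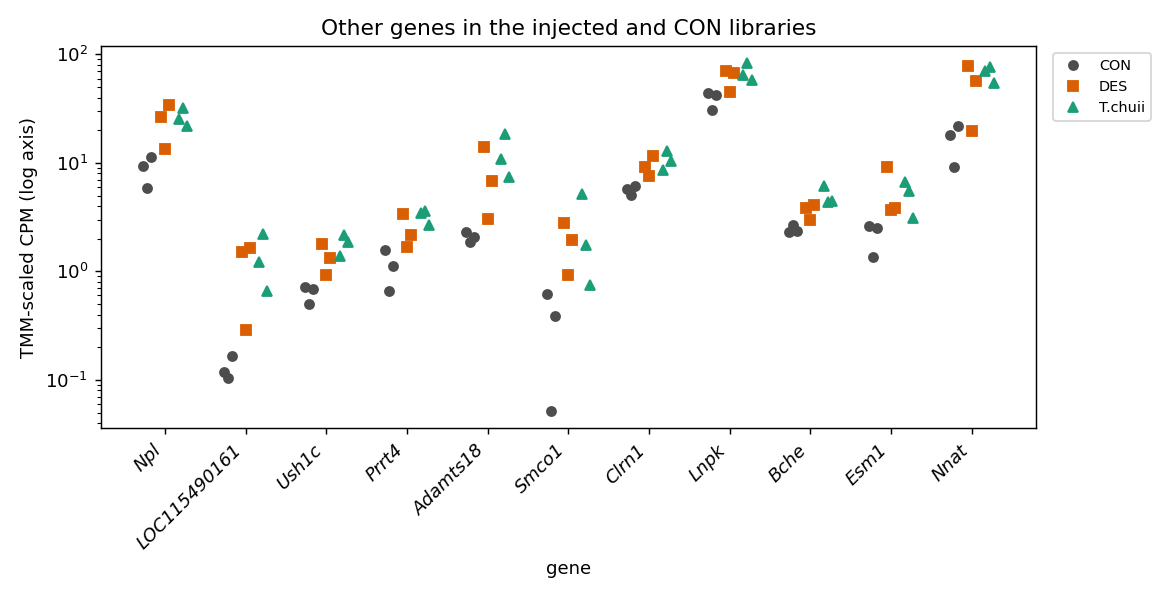
TMM-scaled CPM (log axis) of 11 genes outside the crystallins in CON (circles), DES (squares) and T.chuii (triangles), 1 point a library. In Nnat, shown for contrast, DES 2 (19.6 CPM) lies within the CON range of 9.11 to 21.7.

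The lower genes were led by Ptgs2 (chr1:150100031-150108234), the inducible cyclooxygenase that starts prostaglandin synthesis. It had 8.30, 4.63 and 3.02 CPM across CON, 1.75, 1.04 and 1.63 across DES, and 2.96, 1.72 and 1.17 across T.chuii. The highest injected library, T.chuii 1, lay just under CON 3. The log2 change was -1.57 ± 0.37, with -1.74 ± 0.46 in DES and -1.41 ± 0.45 in T.chuii, and the T.chuii against DES difference was 0.33 ± 0.49. With the crystallin share as a covariate, which itself separates injected from CON, the log2 change was -2.35, and the part of lens content was not tested. Pla2g4f, a cytosolic phospholipase A2, a family that releases the fatty acid which cyclooxygenases use, had 0.735, 1.29 and 0.839 CPM across CON, 0.421, 0.253 and 0.525 across DES, and 0.303, 0.153 and 0.359 across T.chuii (log2 change -1.55 ± 0.37). Pla2g4f was picked after its values were seen. Ptgs2 was the 1 gene without overlap of 20 immediate early and prostaglandin genes, beside 1.12% of all genes tested. Of the 20, 4 were higher and 16 lower, with a median of -0.30 (-0.62 without CON 2, DES 1 and T.chuii 1).

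Kcns1, a modifier subunit of voltage-gated potassium channels, had 1.14, 2.94 and 1.39 CPM across CON, 0.682, 0.590 and 0.580 across DES, and 1.05, 0.545 and 0.511 across T.chuii (log2 change -1.39 ± 0.35). Transcription factors of the POU and zinc-finger classes were among these genes. Pou3f3, known from neurons, had 4.53, 7.80 and 5.02 CPM across CON, 1.68, 2.97 and 2.43 across DES, and 4.52, 2.47 and 2.74 across T.chuii, so that T.chuii 1 lay just under CON 1. Bcl11b, known from T cells, neurons and skin, had 3.37 to 4.43 CPM across CON, and 2.41, 3.03 and 1.79 in DES. In T.chuii it had 1.93, 2.01 and 1.93 CPM (log2 change -0.80 ± 0.24, and -0.30 with the crystallin share as a covariate). The part of lens content in Bcl11b was not tested.

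Tnn, Cilp2 and Mkx are known from extracellular matrix and tendon. Tnn (tenascin N) had 0.990 to 1.45 CPM in CON and 0.208 to 0.782 in the injected libraries (log2 change -1.27 ± 0.39). Cilp2, a cartilage matrix protein, had 4.01 to 4.90 CPM in CON and 1.93 to 3.67 in the injected libraries (log2 change -0.74 ± 0.24). Mkx, the tendon homeobox factor Mohawk, had 10.8 to 11.6 CPM in CON and 6.26 to 9.25 in the injected libraries (log2 change -0.51 ± 0.19). Trib3, a pseudokinase induced by the integrated stress response, had 8.35, 25.7 and 10.2 CPM across CON, 6.42, 7.20 and 8.31 across DES, and 6.50, 5.93 and 5.98 across T.chuii, so that DES 3 nearly reached CON 1. Mink1, Dlec1 and Dclk3 were also lower in all 6 injected libraries, with log2 changes of -0.72, -0.88 and -0.71.

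**Figure D4:**
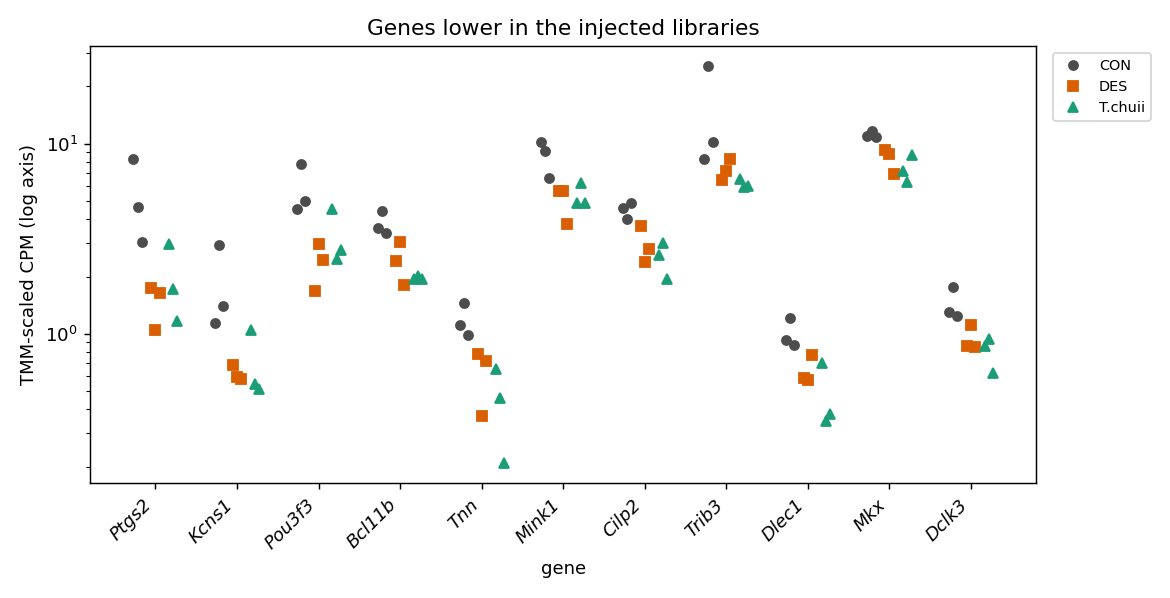
TMM-scaled CPM (log axis) of 11 of the 12 lower protein-coding genes with the smallest p, in CON (circles), DES (squares) and T.chuii (triangles), 1 point a library. All injected points lie under all CON points, by a narrow margin in Pou3f3 (4.52 against 4.53 CPM) and Trib3 (8.31 against 8.35 CPM).

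Corneal and scleral matrix genes were mostly lower without separating the libraries. Of 19 keratocyte and scleral matrix genes, 1 was higher and 18 were lower, with a median log2 change of -0.67. In this list 7 were lower at an unadjusted p under 0.05 (limma-voom), beside 1.08% of all genes tested. In the same list 0 were free of overlap, beside 1.12% of all genes tested. Genes of such a list can vary together, so they are not independent. Col1a1, the main chain of type I collagen, had 83.6, 119 and 49.7 CPM across CON, 36.2, 26 and 22.4 across DES, and 52.0, 24.0 and 13.9 across T.chuii (log2 change -1.57 ± 0.38). T.chuii 1 alone overlapped CON. Col1a2 (-1.26 ± 0.37), Col6a1 (-1.19 ± 0.36) and Col12a1 (-0.97 ± 0.32) had similar log2 changes. All 15 corneal epithelial genes had a negative log2 change (median -0.67), and none had an unadjusted p under 0.05. CON 2 had a corneal epithelial share of reads of 7.69%, DES 1 of 5.01% and T.chuii 1 of 4.40%, while the other 6 libraries had 1.41% to 3.72%. The part of this share in these lists was not tested. With the cornea to rod ratio as a covariate the log2 change of Col1a1 was -1.34.

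Genes of the aqueous outflow pathway, glucocorticoid targets and transporters held some of the larger single differences. Angptl7, made by the trabecular meshwork and corneal stroma, had 286, 604 and 211 CPM across CON, 85.3, 79.7 and 113 across DES, and 262, 62.8 and 111 across T.chuii (log2 change -1.64 ± 0.44). Fst (follistatin, an activin inhibitor) had 34.8, 114 and 39.7 CPM across CON, 15.4, 14.3 and 19.6 across DES, and 46.8, 20.5 and 20.3 across T.chuii. T.chuii 1 was the library within the CON range in both genes. Of 18 outflow genes 7 were higher and 11 lower (median -0.07), and 4 were higher and 14 lower (median -0.31) without CON 2, DES 1 and T.chuii 1. Fkbp5, a chaperone that glucocorticoids induce, had 58.3, 85.5 and 29.0 CPM across CON, 19.1, 22.7 and 32.1 across DES, and 24.7, 25.8 and 25.4 across T.chuii (log2 change -1.10 ± 0.29), and DES 3 alone reached the CON range. Of 16 glucocorticoid-responsive genes 7 were higher and 9 lower (median -0.11). Without DES 2 the median was 0.02, and without CON 2, DES 1 and T.chuii 1 it was -0.23 with 4 higher and 12 lower. Of 16 ion and water transport genes, 4 were higher and 12 lower, with a median of -0.27. Slc4a11, a corneal endothelial transporter, had 59.9, 319.9 and 89.7 CPM across CON, 40.5, 42.1 and 38.3 across DES, and 82.2, 42.1 and 38.4 across T.chuii.

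Fast muscle and mitochondrial genes were higher as lists. Genes of such a list can vary together between libraries, so its members are not independent. All 20 fast skeletal muscle genes had a positive log2 change (median 1.65, 1.05 in DES and 2.32 in T.chuii). Of them 16 were higher at an unadjusted p under 0.05 (limma-voom), beside 1.95% of all genes tested. Of the 20, 0 were free of overlap, beside 1.12% of all genes tested. Their share of reads was 0.333%, 0.102% and 0.222% across CON, 1.02%, 0.332% and 0.192% across DES, and 1.89%, 1.00% and 0.450% across T.chuii, so DES 2 and DES 3 lay within the CON range. Without CON 2, DES 1 and T.chuii 1 the fast muscle median was 0.65 and that of the mitochondrially encoded genes 0.28, with 12 of 13 of the latter positive. Acta1, skeletal α-actin, had 248, 103 and 218 CPM across CON, 1378, 387 and 245 across DES, and 2235, 1098 and 430.1 across T.chuii. All 13 mitochondrially encoded genes had a positive log2 change (median 0.82). Of them 9 were higher at an unadjusted p under 0.05 (limma-voom), beside 1.95% of all genes tested. ND5, a complex I subunit, was the 1 of the 13 without overlap, beside 1.12% of all genes tested. It had 1046, 566 and 1045 CPM across CON, 1291, 1097 and 1652 across DES, and 1756, 1490.4 and 1317 across T.chuii (log2 change 0.73 ± 0.24). COX1, a catalytic subunit of cytochrome oxidase, had 2916, 1767 and 3340.3 CPM across CON, 4876, 3336 and 4840.1 across DES, and 6529, 4666 and 4432 across T.chuii. DES 2 lay at the level of CON 3. The log2 CPM of COX1 was 11.33 ± 0.48 (SD, n = 3) in CON and 12.20 ± 0.31 (SD, n = 6) in the injected libraries. The exact two-sided permutation p was 0.0238 over the 84 arrangements, and 0.0714 adjusted over the 3 single values tested. In the fit over all genes the adjusted p of COX1 was 0.9999 (limma-voom). COX1 had the smallest p of its list in that fit. It was chosen with earlier results of these data known, which the adjustment over 3 values does not cover. Of 18 nuclear oxidative phosphorylation genes 17 were higher (median 0.30, and 0.15 without CON 2, DES 1 and T.chuii 1). Ndufs1 alone did not overlap, beside 1.12% of all genes tested, and its change was not counted as alike in DES and T.chuii. With the crystallin share as a covariate, which itself separates injected from CON, the log2 change was 0.83 for Acta1, 0.28 for ND5 and 0.31 for COX1. The part of lens content in these genes was not tested.

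**Figure D5:**
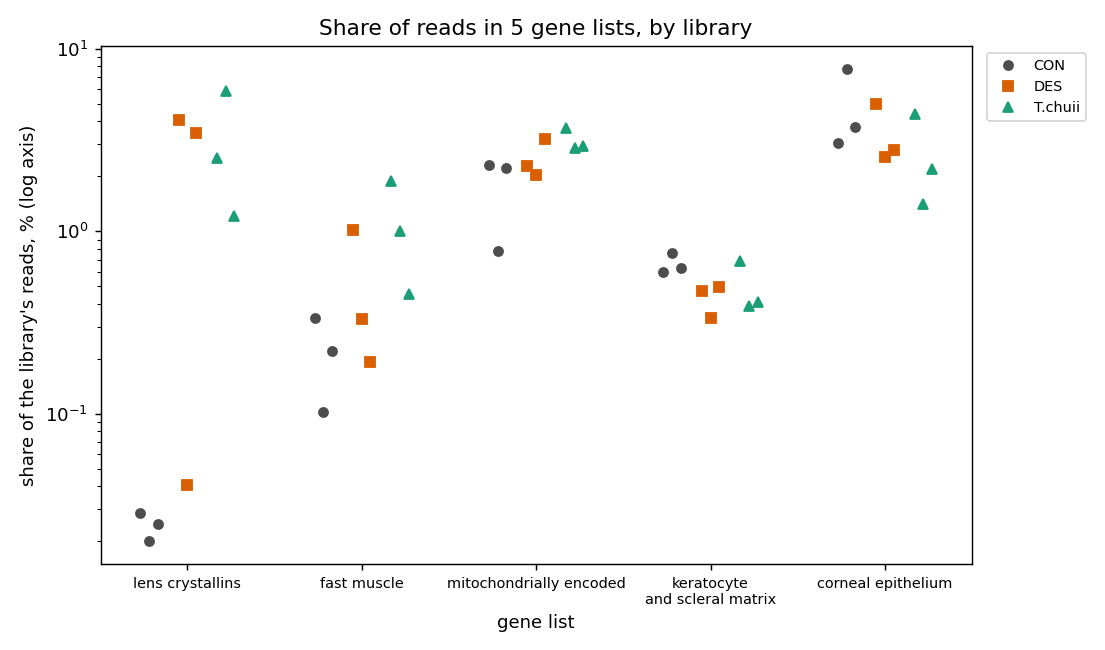
Share of each library's reads (%, log axis) held by 5 gene lists, 1 point a library, CON as circles, DES as squares and T.chuii as triangles. Crystallin shares separate injected from CON, with DES 2 at 0.0408% and the highest CON library at 0.0287%, and the other 4 lists overlap.

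In the lists tied to dry eye and mucins no gene was free of overlap between injected and CON libraries, beside 1.12% of all genes tested. Of 14 dry eye cytokines and chemokines, 5 were higher and 9 lower, with a median of -0.08 (-0.21 without CON 2, DES 1 and T.chuii 1) and no unadjusted p under 0.05. Tnf, a cytokine raised in inflamed ocular surfaces, had 6.43, 9.97 and 1.95 CPM across CON, 3.51, 4.11 and 5.16 across DES, and 5.61, 2.12 and 4.78 across T.chuii. Il1b, interleukin-1β, had 4.29, 2.76 and 2.23 CPM across CON, 2.09, 1.35 and 1.41 across DES, and 3.75, 1.22 and 0.567 across T.chuii. T.chuii 1 was the sole injected library within the CON range. Mmp3, a matrix protease of the corneal stroma, had 158, 221 and 197 CPM across CON, 87.2, 56.7 and 162 across DES, and 129, 77.7 and 116 across T.chuii (log2 change -0.94 ± 0.30, unadjusted p = 0.0101), overlapping through DES 3 alone. Mmp9, the protease used as a tear marker of dry eye, had 3.15 to 3.96 CPM in CON and 1.28 to 4.15 in the injected libraries.

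Mucin and goblet cell genes had a median of 0.06 (-0.02 by FPKM, 0.31 without CON 2, DES 1 and T.chuii 1), with 5 of 10 higher. Muc5ac, the secreted mucin of conjunctival goblet cells, had 2.37, 32.0 and 12.3 CPM across CON, 1.00, 99.9 and 11.6 across DES, and 11, 31.4 and 8.53 across T.chuii. Muc4, a membrane mucin of the ocular surface, had 72.5 to 248 CPM in CON and 93.8 to 163 in the injected libraries. Krt12, the keratin of corneal epithelium, had 11580.4, 33865 and 13535 CPM across CON, 21142, 7792 and 12574 across DES, and 19573, 3997 and 8412 across T.chuii. Among the muscarinic receptors that scopolamine blocks, Chrm1 had 1.90 to 3.36 CPM in CON and 1.85 to 3.27 in the injected libraries, Chrm2 9.66 to 11 and 7.45 to 13.3, and Chrm3 1.22 to 2.11 and 1.07 to 2.43. Chrm4 had 0.369 to 0.861 CPM in CON and 0.0828 to 0.545 in the injected libraries (log2 change -1.22 ± 0.54). Its unadjusted p was 0.0447 and its adjusted p 0.9999 (limma-voom). All 4 overlapped. Of the antioxidant genes, Hmox1 (heme oxygenase 1) had 7.65 to 32.7 CPM in CON and 7.40 to 70.8 in the injected libraries.

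Interferon response genes had 20 of 20 negative log2 changes, 1 of them positive by FPKM (median -0.31, -0.06 in DES and -0.67 in T.chuii) and no unadjusted p under 0.05. Cell cycle genes had 15 of 16 negative (median -0.28, 0.03 in DES and -0.62 in T.chuii), again with none. Rod phototransduction genes had a median of -0.03, and 0.11 without CON 2, DES 1 and T.chuii 1. Erythroid genes were higher in 5 of 5 (median 0.81) and in 0 of 5 (median -0.43) without those 3 libraries, adipocyte genes in 3 of 3 (2.68) and myelin genes in 4 of 7 (0.06). The adipocyte median was 0.04 in DES and 4.42 in T.chuii, and 1.23 over the injected libraries without those 3 libraries. The myelin median was -0.72 in DES and 0.93 in T.chuii. Of 14 pigment epithelium genes 8 were higher (median 0.01), and 1 of 14 (median -0.20) without those 3 libraries. Medians of smooth muscle, retinal stress, antioxidant, macrophage, pigment epithelium, Müller glia, cone, inner retina, gland, heat shock and TGF-β lists lay between -0.21 (heat shock) and 0.14 (cone). Some changed sign with the libraries used, such as macrophage (0.12) and TGF-β (0.02) without DES 2, and antioxidant (0.02) and smooth muscle (-0.08) without CON 2, DES 1 and T.chuii 1.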

How the data were processed

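RNA of 9 eyeball libraries was extracted with Trizol and sequenced from a stranded mRNA kit (TruSeq Stranded mRNA LT), per the labels' protocols. The submitters' processing notes list build mm10 and the tools StringTie 2.1.3b, HISAT2 2.1.0, Bowtie2 2.3.4.1, Trimmomatic 0.38 and FastQC 0.11.7. Counting and strand settings are not given in the sources used here. The deposited tables hold a whole-number read count and an FPKM value per gene, per the file headers, and no gene has a count of 0 in any library. Values were taken from the last cells of a row, since the transcript field spans a varying number of cells.

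Genes were kept at 15 reads or more in all and, in 3 or more libraries, a CPM worth 10 reads at the median depth. TMM scaling (trimmed mean of M-values, own code) was applied to the counts, which were tested with limma-voom (limma 3.58.1, R 4.3.3, two-sided, Benjamini-Hochberg), first with the 6 injected libraries pooled against CON (7 residual degrees of freedom), then with 3 group means (6 degrees of freedom). The fit was tested on simulated counts with known changes. These had a fixed spread and no difference in tissue mix between libraries, so they do not show how the fit performs on these libraries. Single values were compared by exact permutation. Named genes were up to 12 per direction past the threshold, the 12 protein-coding genes per direction with the smallest p among those without overlap and with a group mean of at least 1 CPM, a dry eye panel, and up to 4 genes of each list. Others are marked as picked after their values were seen. The comparison, lists and rules were chosen with earlier results of these data known. Panel genes not in the tables were not analysed here, and some genes the rules name are not reported here. Other scalings, filters, covariates and left-out libraries were tried. Gene IDs matched the RefSeq table of GRCm38.p6 for 22534 of 22587 genes. No pair of libraries was a duplicate (chi-square per degree of freedom 33.9 or more). Tables and figures used Python 3.11.15, pandas 2.3.3 and matplotlib 3.10.9.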

Additional observations from a re-analysis of the deposited data

Results flagged for a closer look

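In some genes 1 injected library lay far from the other 5 on the log2 CPM scale, by a gap that exceeded Dixon's 95% critical value for 6 libraries. Chance gives this in about 1 in 20 genes, and 77 genes were examined. DES 2 was the low library in 5 lens and lens-linked genes, with 154 CPM of Cryaa, 170 of Cryab, 1.23 of Crygn, 0.253 of Pitx3 and 19.6 of Nnat. T.chuii 1 was the high library in 7 genes. It had 88.7 CPM of Col12a1, 46.8 of Fst, 592 of Igfbp2 and 82.2 of Slc4a11, and its corneal epithelial share of reads (4.40%) was the highest in T.chuii. It also had 348 CPM of Pdhb, 469 of Idh3a and 49.7 of Ccl11, an eosinophil chemokine, and its fast muscle share (1.89%) was the highest of all 9 libraries. The part of these shares in the values was not tested.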

How the results depend on the processing

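With all 9 libraries the count of genes past the threshold in injected against CON stayed at 0 under every scaling, filter, FPKM fit, covariate and weighting tried. The planned count tests of other packages were not run, because the irregular rows were not accepted as a count column. Leaving out single libraries gave 0 to 26 of 21287 genes in injected against CON. The counts were 0 to 15 in DES against CON and 0 to 17 in T.chuii against CON, the higher counts all without DES 2. Genes without overlap numbered 312 to 1119 with 1 library left out, against 239, and each library except T.chuii 2 and T.chuii 3 moved the count by over 1.5 times. Fewer libraries make overlap rarer by construction. Without CON 2, DES 1 and T.chuii 1 together, 2240 genes did not overlap, and 1 gene (AA386476) passed in T.chuii against CON and 1, the same gene, in T.chuii against DES. No alternative listed at the outset turned the direction of a gene whose log2 change is given. With the log2 crystallin share as a covariate, added after seeing the data and nearly a measure of lens genes itself, log2 changes turned negative for Lim2 (-0.63), Bfsp2 (-1.55), Cryab (-0.99), Crygn (-0.84), Maf (-0.46), Gstm1 (-0.14), Vim (-0.50) and Fas (-0.32). With the cornea to rod ratio as the covariate instead, the log2 changes were 1.18 for Maf, 1.10 for Gstm1, 1.06 for Vim and 1.41 for Fas (limma-voom, adjusted p = 0.681 each). Titles give the groups the same replicate numbers, but the file headers name the libraries with other numbers, and deviations of same-numbered libraries correlated between -0.37 and 0.56, so the numbers were not taken as pairs. A fit with the replicate block gave 0 genes in each comparison, so it changed no call. Genes at 0 in any library were not analysed here.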

Other observations

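A cluster of zinc-finger genes and predicted relatives on chromosome 2 (mm10) was prominent among the higher genes. Between the gene that starts at 175016710 and the one that starts at 177935993, 45 genes were tested, and in 14 of them all 6 injected libraries lay above all 3 CON libraries, out of 23 such genes on the whole chromosome, beside 0.803% of all genes tested. None lay below, and 42 of the 45 had a positive log2 change, beside 45.3% of all genes tested. Those 14 had log2 changes between 0.37 and 0.80. Gm14295 had 11.1, 10.5 and 10.3 CPM across CON, 16.0, 13.4 and 31.9 across DES, and 16.2, 24.1 and 16.1 across T.chuii, with log2 changes of 0.80 ± 0.33 in both injected groups. Zfp965, a zinc-finger gene that overlaps Gm4724 in the annotation, had 18.1, 13.5 and 18.8 CPM across CON, 20.8, 19.8 and 40.7 across DES, and 19.8, 26.5 and 23.8 across T.chuii. DES 3 was the highest library in 12 of the 14. With the crystallin share as a covariate, which itself separates injected from CON, the log2 change was 0.19 for Gm14295 and 0.18 for Zfp965. The part of lens content in the cluster was not tested. Genes of this cluster are close paralogs, so reads may have been divided between them and the 14 are not independent. The window was chosen after its values were seen.

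Genes of the citrate cycle and pyruvate dehydrogenase, a list added after seeing the data, were higher in 18 of 21 (median log2 change 0.31, and 0.18 without CON 2, DES 1 and T.chuii 1). In 6 of them injected and CON libraries did not overlap, all higher, beside 0.803% of all genes tested. The size of the change was alike in DES and T.chuii in 3 of the 6. The list median was 0.15 in DES and 0.39 in T.chuii. Sucla2, a succinyl-CoA ligase subunit, had 222, 176 and 216 CPM across CON, 276, 231 and 302 across DES, and 443, 278 and 297 across T.chuii. Pdhb, a pyruvate dehydrogenase subunit, had 182 to 217 CPM in CON and 222 to 348 in the injected libraries. T.chuii 1 was the highest library in both. With the crystallin share as a covariate, which itself separates injected from CON, the log2 change was 0.19 for Sucla2 and 0.18 for Pdhb. The part of lens content in both was not tested.

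AW112010, a transcript known from immune cells and picked after its values were seen, had 3.04, 1.48 and 3.74 CPM across CON, 4.35, 12.4 and 10.5 across DES, and 13.9, 7.51 and 7.54 across T.chuii (log2 change 1.77 ± 0.43). DES 2, low in lens genes, was its second highest library. With the crystallin share as a covariate its log2 change was 2.35. That share itself separates injected from CON, so the fit tells it poorly from the group, and the part of lens content in AW112010 was not tested.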
